A study of Rattus norvegicus with 16 samples.

Results

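Monoamine oxidase A (Maoa) and monoamine oxidase B (Maob) were examined across rat retina and pineal gland. The members are all probe sets annotated to either symbol alone, which are 3 of the 8740 probe sets that are not controls and stand for 2 of the 4736 named genes on the array. Maoa was read by the probe sets D00688_s_at and S45812_s_at, and Maob by M23601_at. Both Maoa probe sets target 1 gene and are not independent measurements of it. All 3 passed the filter on dim probe sets, and Maob passed it in the retina alone as well as over both tissues.

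The groups were pineal gland at CT12, CT6, ZT12 and ZT6 with 1 array each, and retina at CT12, CT6, ZT12 and ZT6 with 3 arrays each, 16 arrays of total RNA in all. ZT, Zeitgeber time, by convention counts hours from lights on in a light-dark cycle, and CT, circadian time, counts hours of the internal clock in its absence. The labels give the hour and the regime but describe neither the lighting nor the strain, age or sex of the rats, and they name no treatment or allele. Whether arrays that differ in number stand for different rats is not said, and a p-value here reflects only array-to-array spread, which may be technical. The pineal array titled ZT 12 carries a description of 6.0 h, and the title was followed. The source names call the pineal arrays retina as well, and there too the title was followed. Titles of the retina arrays numbered 3 and of the pineal ZT12 array begin with "brain, retina", and all other titles with "eye, retina". What this prefix stands for is not said.

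Monoamine oxidases are flavin enzymes anchored in the outer mitochondrial membrane. They remove the amine group of serotonin, noradrenaline, dopamine and trace amines, and release an aldehyde, ammonia and hydrogen peroxide. MAO-A prefers serotonin and noradrenaline, MAO-B prefers phenylethylamine, and both act on dopamine. The pineal gland makes large amounts of serotonin as the precursor of melatonin and receives noradrenaline from sympathetic nerve endings. Classical enzyme studies of the rat pineal assigned type A activity mainly to those nerve endings and type B activity to pinealocytes. In the retina, dopamine from amacrine cells is a major monoamine.

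Both genes lie on chromosome X, on opposite strands, and 0 other genes stand between them in the RefSeq table of build GRCr8. The 250 bases before each annotated start, read 5′ to 3′ on the gene's own strand, are shown because the genes are neighbours whose levels differed between the tissues in opposite directions. Neither stretch is part of the transcript. Capitals mark GC boxes, GGGCGG or its reverse complement CCGCCC, to which Sp family factors can bind.
Maoa, chrX:8681373-8681622, minus strand: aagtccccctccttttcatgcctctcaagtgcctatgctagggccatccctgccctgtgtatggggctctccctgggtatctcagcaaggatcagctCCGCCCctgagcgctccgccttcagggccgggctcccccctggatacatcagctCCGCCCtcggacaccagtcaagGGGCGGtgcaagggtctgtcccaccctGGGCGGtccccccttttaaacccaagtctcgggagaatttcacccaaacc
Maob, chrX:8490155-8490404, plus strand: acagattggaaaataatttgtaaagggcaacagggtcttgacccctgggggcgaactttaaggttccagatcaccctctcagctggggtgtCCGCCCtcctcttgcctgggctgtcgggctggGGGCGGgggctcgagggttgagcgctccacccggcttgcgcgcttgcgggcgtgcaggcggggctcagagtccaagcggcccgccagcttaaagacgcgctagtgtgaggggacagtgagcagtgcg

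The Maoa stretch held 4 GC boxes, between 153 and 45 bases before the start. The Maob stretch held 2, between 159 and 122 bases before it. Searched the same way on both strands, 30.5% of 33469 promoters of this length held at least 1 GC box, and 7.41% held 3 or more. The G and C content was 62.4% for Maoa and 63.6% for Maob, at percentiles 79.8 and 82.1 of all promoters. Neither stretch held the E-box CACGTG (in 5.59% of promoters), the cyclic AMP response element TGACGTCA (1.59%), the CRX site TAATCC or its reverse complement GGATTA (6.34%), or the TATA box TATAAA or its reverse complement TTTATA (12.9%). No searched motif overlaps another in either stretch. A match to these letters is a description of the sequence and does not show that a factor binds there.

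Median intensities were 531.6 to 576.3 on the pineal arrays and 671.3 to 858.4 on the retina arrays, so arrays were quantile normalized for the tests. Values given as intensities below are as deposited. The labels were checked against marker genes. Of 8 measured pinealocyte markers 5 were tested, with a median of -0.48. They split into 2 higher in the pineal gland (Asmt and Chrnb4), 2 lower (Isl1, and Sag at -3.95 log2 units) and Drd4 (-0.48), which did not pass. The retina mean of Asmt (8.59) and the pineal mean of Isl1 (8.13) lay under the filter limit of 8.82. Each of these was tested because of its level in the other tissue. Isl1, Sag and Drd4 are also made in the retina. Of the 3 under the filter, Tph1, the serotonin-making tryptophan hydroxylase, had log2 levels of 14.00 to 14.63 in pineal arrays and 4.71 to 7.89 in retina arrays, Aanat is given below, and Cnga2 differed by 0.37 (limma adjusted p = 0.601 with no filter). The mean log2 level of 8 rod markers was 13.01 to 13.38 in the pineal arrays and 14.92 to 15.80 in 11 of the 12 retina arrays. The exception was retina CT12 array 1, with 11.81. That array also had a median Spearman correlation of 0.837 with the other retina arrays, where the other 11 had 0.944 to 0.962. Lens markers had a mean log2 level, over 13 genes, of 9.42 to 9.78 on the pineal arrays and of 11.08 to 16.94 on the retina arrays. The members' values are therefore also given without CT12 array 1 and with the lens level as a covariate where they bear on a result.

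Maob was 23.4-fold higher in the pineal gland than in the retina, while Maoa was lower there by 1.87-fold with one probe set and 2.15-fold with the other. Maob had intensities of 17222 at CT12, 13844 at CT6, 18765 at ZT12 and 14689 at ZT6 in the pineal gland. In the retina it had 475, 434 and 603 at CT12, 549.7, 698 and 652 at CT6, 617, 688.4 and 789 at ZT12, and 681, 919.9 and 636 at ZT6. The lowest pineal value lay far above the highest retina value. Among all probe sets of an array, Maob stood at percentiles 93.4 to 95.03 in the pineal gland and 36.6 to 53.2 in the retina. The table carries no detection calls, so whether the retina signal exceeds background was not tested.

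**Figure D1:**
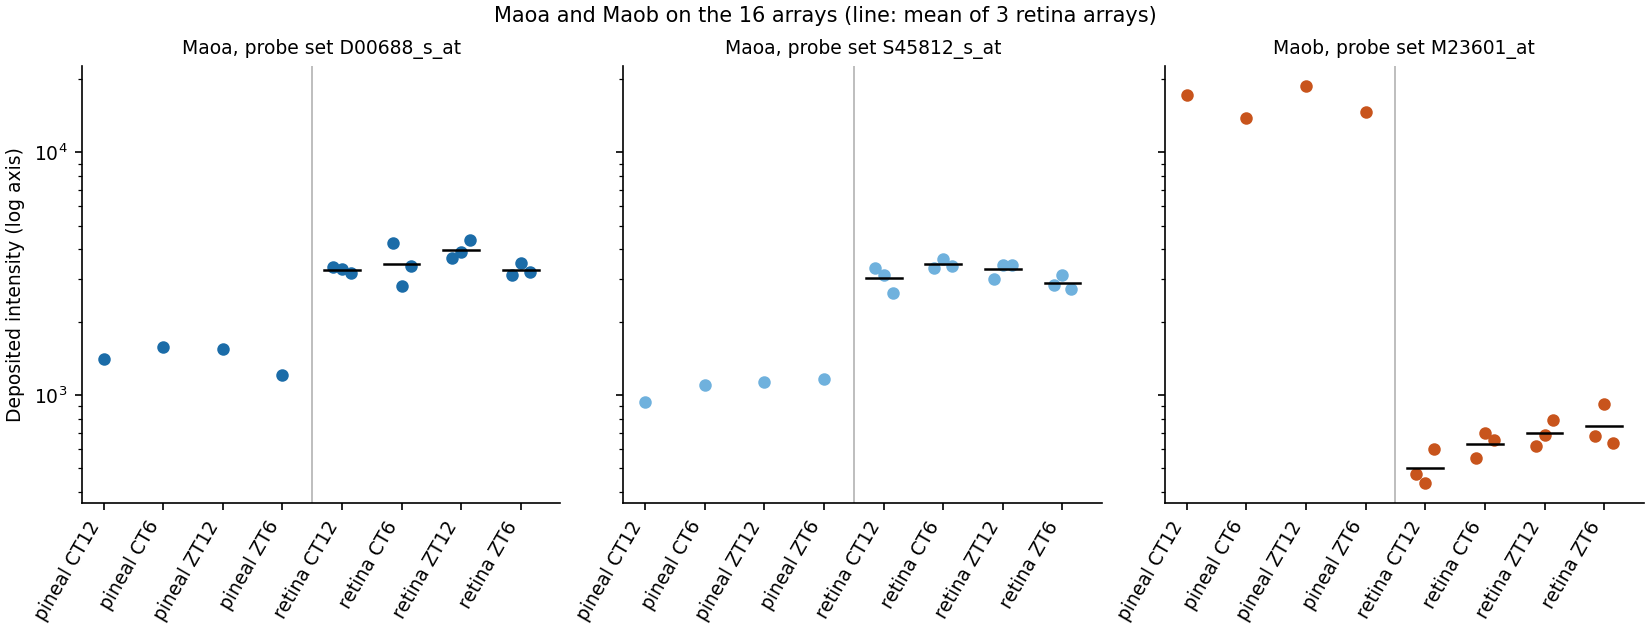
Deposited intensity of each probe set on the 16 arrays, on a log axis, with the 4 pineal arrays left of the 12 retina arrays and a line at the mean of each 3 retina arrays. Maob sits between 13844 and 18765 in the pineal gland and between 434 and 919.9 in the retina, whereas both Maoa probe sets are lower in every pineal array than in any retina array.

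Maoa ran the other way. Probe set D00688_s_at, the brighter of its pair, had intensities of 1417 at CT12, 1577 at CT6, 1557 at ZT12 and 1214 at ZT6 in the pineal gland. In the retina it had 3385, 3310.2 and 3179 at CT12, 4221, 2812 and 3418 at CT6, 3673, 3906 and 4360.0 at ZT12, and 3123, 3493 and 3222 at ZT6. Every pineal array lay below every retina array. Probe set S45812_s_at had 941 at CT12, 1107 at CT6, 1134 at ZT12 and 1172 at ZT6 in the pineal gland. In the retina it had 3356, 3117 and 2646 at CT12, 3357, 3638 and 3395 at CT6, 3002, 3452 and 3445 at ZT12, and 2851, 3124 and 2739 at ZT6. It too showed no overlap between the tissues, so both probe sets of the gene gave the same order. Their percentiles on the array were 65.7 to 70.9 and 62.5 to 65.4 in the pineal gland and 76.1 to 82.8 and 75.1 to 82.4 in the retina.

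On the normalized log2 scale, Maob averaged 13.78 ± 0.20 in pineal arrays and 9.23 ± 0.30 in retina arrays (SD, n = 4 and 12). The difference was 4.55 ± 0.15 (SE), or 23.4-fold with a 95% interval of 18.7 to 29.2-fold (limma, adjusted p = 6.33e-12). It was the 19th largest positive difference of the 5244 tested. Maoa averaged 10.82 ± 0.18 in pineal arrays and 11.72 ± 0.21 in retina arrays with D00688_s_at, a difference of -0.90 ± 0.12 (1.87-fold lower, interval 1.56 to 2.24-fold, limma adjusted p = 1.06e-05). With S45812_s_at it averaged 10.47 ± 0.09 in pineal arrays and 11.57 ± 0.20 in retina arrays, a difference of -1.10 ± 0.12 (2.15-fold lower, interval 1.79 to 2.58-fold, limma adjusted p = 1.50e-06).

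Large parts of the array differed between these tissues: 39.4% of the 5244 tested probe sets were higher in the pineal gland and 36.4% were lower, so passing this test was common. All 4 pineal arrays lay above all 12 retina arrays for 27.2% of probe sets, as for Maob, and below them for 24.4%, as for both Maoa probe sets. Of the probe sets that passed, 51.9% were higher in the pineal gland, against 41.6% with the values as deposited. The median over all tested probe sets was 0.09, -0.23 as deposited and 0.28 with arrays set to a common median. Relative to that median, Maob stood at 4.45, 4.86 and 4.86 under the same settings, and Maoa (D00688_s_at) at -0.998, -1.04 and -1.04. In whole tissue, fewer cells of a type and less RNA per cell cannot be told apart. Maoa and Maob are related in sequence, and hybridisation of either RNA to the other gene's probes was not tested.

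The tissue difference had the same direction in all 4 conditions. For Maob the pineal array exceeded the mean of the 3 retina arrays by 5.01 log2 units at CT12, 4.33 at CT6, 4.61 at ZT12 and 4.24 at ZT6, which are 32.3-fold, 20.1-fold, 24.4-fold and 18.9-fold. For Maoa the difference was -0.91, -0.75, -0.95 and -1.0 with D00688_s_at in the same order. With S45812_s_at it was -1.29, -1.19, -1.07 and -0.87. The value at CT12 was the largest for Maob, where the retina mean was lowest, at 8.87 ± 0.21 (SD, n = 3). That mean lay close to the filter limit of 8.82, and CT12 array 2 was under it at 8.62. The 32.3-fold therefore rests on a low retina level. With 1 pineal array in each condition, these 4 values have no test of their own.

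**Figure D2:**
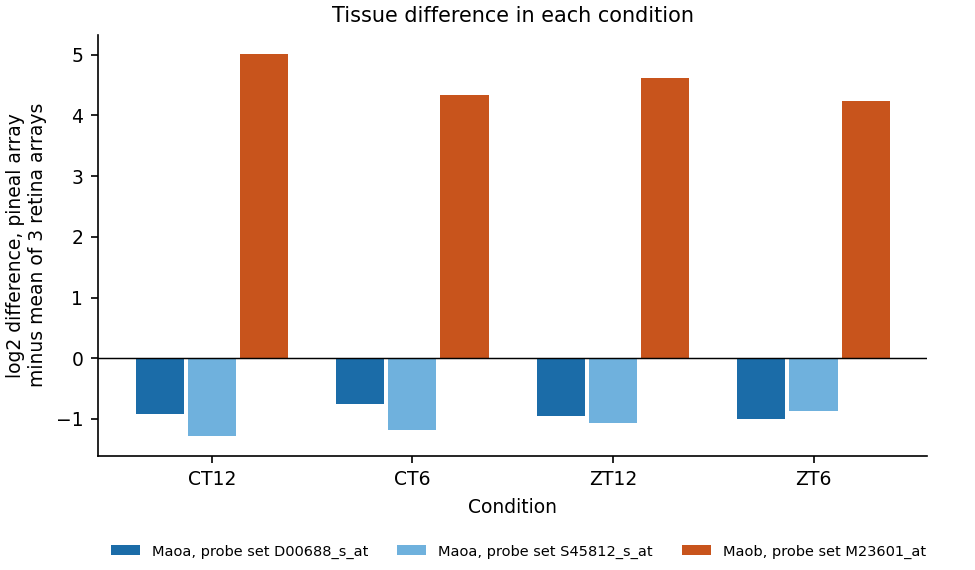
Pineal array minus the mean of 3 retina arrays, in log2 units, for each condition and probe set. The Maob bars reach 4.24 to 5.01, and the Maoa bars lie between -0.75 and -1.29.

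The balance of the genes was taken as the log2 level of Maoa (D00688_s_at) minus that of Maob on each array. Since the probe sets differ in brightness per molecule, the zero point of this value has no meaning and only its shift between arrays can be read. It averaged -2.96 ± 0.20 in the pineal gland and 2.49 ± 0.40 in the retina (SD, n = 4 and 12). The shift was -5.45 log2 units, with pineal arrays at -3.10 to -2.66 and retina arrays at 1.92 to 3.09. An exact two-sided permutation test gave p = 0.000549, the smallest that 1820 arrangements allow, and 0.0011 adjusted over the 2 balance tests made. Every pineal array already lay above every retina array for Maob and below for Maoa, so the balance had to separate the tissues. This p-value therefore adds nothing to the differences of the single genes.

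Other enzymes of monoamine breakdown differed in both directions. Of 16 genes of that list measured beside Maoa and Maob, 11 were tested, of which 6 were higher in the pineal gland, 3 were lower and 2 did not pass, with a median difference of 0.30 against 0.09 for all probe sets. Counts of this and the following lists read against the 39.4% higher and 36.4% lower over the array. Among dehydrogenases that can clear the aldehydes made by monoamine oxidases, Aldh7a1 was 7.84-fold higher (log2 difference 2.97 ± 0.27, limma adjusted p = 1.58e-07), Aldh1a1 was 2.84-fold higher and Aldh3a2 was 2.12-fold higher. Aldh2, the mitochondrial aldehyde dehydrogenase, was lower, at 8.06 ± 0.79 log2 units in pineal arrays and 10.26 ± 0.72 in retina arrays (SD, n = 4 and 12). Its pineal mean lay under the filter limit of 8.82, so it was tested because of its retina level, and no fold is given for such genes. The reductase Akr1a1, which makes alcohols of aldehydes, was lower by 0.56 ± 0.12 log2 units, a call and direction lost with arrays set to a common median (0.15). Its relative Akr1b1 was lower by 0.72 ± 0.27, also lost there (-0.02), with the values as deposited (-0.53) and without the pineal ZT12 array (-0.74, adjusted p = 0.0605 by limma).

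Adh5, an alcohol and formaldehyde dehydrogenase, was 7.30-fold higher in pineal arrays. Aoc1, the diamine oxidase, differed by 0.30 ± 0.12 log2 units and Nat2, an N-acetyltransferase, by 0.34 ± 0.11. The Aoc1 call was lost as deposited, where the difference was -0.17, and without the pineal ZT12 array (0.29). The aldehyde reductase Akr7a2 (0.25 ± 0.13) and the sulfotransferase Sult1a1 (-0.23 ± 0.25) did not pass. With the values as deposited both passed, at 0.38 for Akr7a2 and -0.69 for Sult1a1. Akr7a2 also passed with arrays set to a common median (0.90).

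Hydrogen peroxide and ammonia are the other products of the reaction. The list for these products had 12 genes, all tested, and includes the superoxide dismutases Sod1 and Sod2, which make hydrogen peroxide. In the pineal gland 7 of the 12, Sod1 and Sod2 among them, were higher, 2 were lower and 3 did not pass. The median difference was 0.59. Catalase (Cat), which breaks down hydrogen peroxide, was 8.82-fold higher (3.14 ± 0.19 log2 units). The peroxidase Prdx6 was 3.14-fold higher, Txnrd1, which reduces thioredoxin, was 2.57-fold higher, and superoxide dismutase Sod1 was 2.71-fold higher. Gpx4, the glutathione peroxidase of lipid peroxides, was 13.9-fold lower (-3.80 ± 0.21). Glul, which fixes ammonia as glutamine, was lower by 0.67 ± 0.17 log2 units, a call lost with arrays set to a common median (-0.01), where 10 genes of the list were higher and 1 lower.

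Of 12 measured genes of monoamine synthesis, 7 passed the filter, and 5 of these were higher, 1 was lower and 1 did not pass, with a median of 0.58. Gch1, which makes the precursor of the cofactor tetrahydrobiopterin, had log2 levels of 16.09 ± 0.14 in pineal arrays and 8.38 ± 0.50 in retina arrays, and Asmt, the last enzyme of melatonin synthesis, 13.43 ± 0.19 in pineal arrays and 8.59 ± 0.94 in retina arrays (SD, n = 4 and 12). The retina means of both lay under the filter limit, so 2 of the 5 higher genes were tested only because of their pineal levels. Th, tyrosine hydroxylase, was lower by 0.97 ± 0.22 log2 units. Several members fell under the filter, and in a fit with no filter Tph1 (limma adjusted p = 1.02e-09) and Ddc (limma adjusted p = 1.91e-12) were higher in the pineal gland. Ddc, which makes serotonin and dopamine, had log2 levels of 13.16 to 13.91 in pineal arrays and 5.91 to 6.70 in retina arrays. Aanat, the rhythmic enzyme of melatonin synthesis, had log2 levels of 9.21 to 14.08 in pineal arrays and 6.92 to 9.05 in retina arrays. The retina levels of Gch1, Asmt, Tph1, Ddc and Aanat were low, and a fold against them would depend on values near the floor of the array.

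Of 7 measured monoamine transporters, 3 passed the filter and 2 were higher in the pineal gland, with a median of 0.69. They were the noradrenaline transporter Slc6a2 (0.82 ± 0.17) and the serotonin transporter Slc6a4 (0.69 ± 0.21), and both calls were lost with the values as deposited (0.33 and 0.22). The dopamine transporter Slc6a3 differed by 0.07 ± 0.27.

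**Figure D3:**
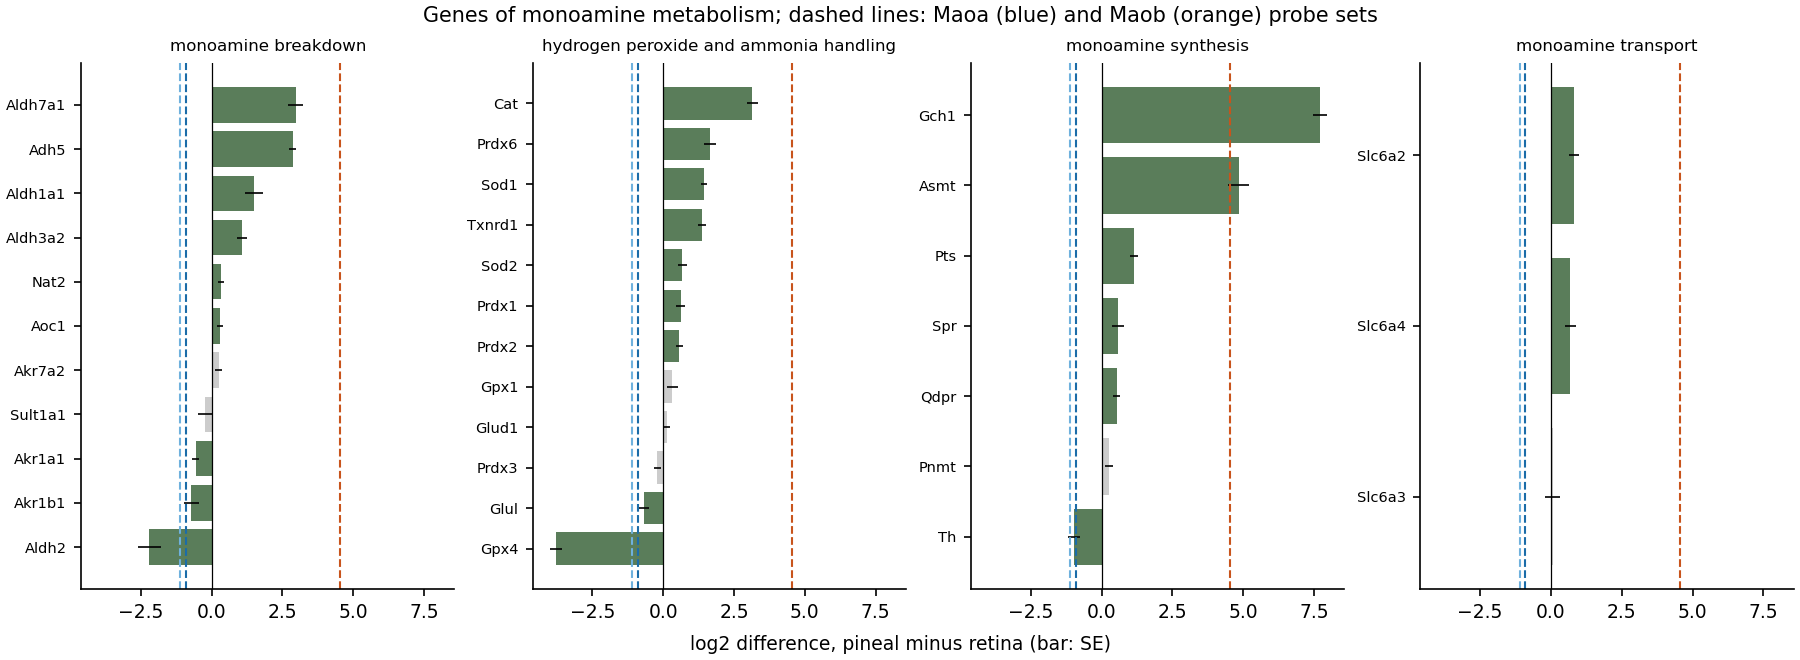
Log2 difference, pineal minus retina, with its standard error, for tested genes of 4 lists. Green bars passed the test, grey bars did not, and dashed lines mark the Maoa (blue, -0.90 and -1.10) and Maob (orange, 4.55) probe sets. Gch1 and Asmt, at 7.71 and 4.84, lie beyond the Maob line, and their retina means are under the filter limit of 8.82.

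Genes of the outer mitochondrial membrane, where both oxidases sit, were 6 higher, 9 lower and 1 not passing of 16 tested, with a median of -0.43, and 1 of the lower genes had a pineal mean under the filter limit. With arrays set to a common median 6 were higher and 6 lower (median -0.27). Without the pineal ZT12 array 6 were higher and 7 lower, and with the values as deposited 5 were higher and 9 lower. Tspo, the translocator protein, was 8.43-fold higher, Acsl1, an acyl-CoA synthetase, 8.01-fold and the import receptor Tomm20 4.06-fold. Vdac1, the main channel of this membrane, was 16.7-fold lower, and the hexokinase Hk1, which docks on it, 7.92-fold lower.

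Among 8 tested genes for factors reported at Mao promoters, 4 were higher in the pineal gland, 2 were lower and 2 did not pass, with a median of 0.44. Sp1, which binds GC boxes such as those printed above, was at 6.40 ± 0.33 log2 units in pineal arrays and 10.10 ± 0.67 in retina arrays (SD, n = 4 and 12). Its pineal mean lay under the filter limit, so it was tested because of its retina level. The glucocorticoid receptor Nr3c1 was lower by 0.84 ± 0.15 log2 units. Foxo1, reported as a repressor of the gene in human cells, was higher by 0.95 ± 0.12. Egr1 was higher by 2.42 ± 0.63, with its retina levels changing by hour. Esrra (1.17 ± 0.35) and Jun (0.92 ± 0.29) were higher, and lost the call with the values as deposited (0.67 and 0.64).

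Cell types differed between the tissues in the same arrays. Of 12 tested markers of astrocytes and Muller glia, cells in which MAO-B is found in brain, 10 were lower in the pineal gland, 3 of them with a pineal mean under the filter limit, and 1, Apoe, was higher, with a median of -1.54. Their summed level, linear and normalized over all 16 arrays, was 287949 to 338506 in pineal arrays and 303707 to 395597 in retina arrays. Apoe, at mean log2 levels of 17.79 in pineal arrays and 16.23 in retina arrays, made up much of the pineal sum. Of 7 markers of noradrenergic fibres 6 were measured and 3 tested, of which Slc6a2 was higher and Th lower. The summed level of the 6 measured, on the same scale, was 3401 to 6013 in pineal arrays and 4426 to 18816 in retina arrays. The highest of these sums was on retina CT12 array 1. Whether these RNAs follow the nerve endings in either tissue was not tested. Dbh, the defining enzyme of noradrenaline synthesis, had log2 levels of 7.74 to 9.46 in pineal arrays and 6.26 to 8.98 in retina arrays, under the filter. Blood markers were higher for 4 of 4 tested, against 3 with the values as deposited and 2 without the pineal ZT12 array. Immune markers were higher for 5 of 6 tested, against 3 and 4 in those settings. Of 13 lens markers 0 were higher and 10 were lower, 4 of them with a pineal mean under the filter limit. The part of any of these cell types in the Maoa and Maob differences was not tested.

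Within the retina, neither gene passed the test for hour or regime. For hour 12 against hour 6 over both regimes, Maoa (D00688_s_at) averaged 11.87 ± 0.15 and 11.67 ± 0.21, and Maob 9.24 ± 0.34 and 9.44 ± 0.25 (SD, n = 6 each). The differences were 0.20 ± 0.12 (95% interval -0.07 to 0.47, limma adjusted p = 0.381) for Maoa and -0.20 ± 0.14 (-0.51 to 0.10, limma adjusted p = 0.421) for Maob. With S45812_s_at, Maoa differed by 0.09 ± 0.12. Over the array, 0.21% of probe sets passed in this comparison, or 11, against 178 without CT12 array 3. The intervals admit a change of up to about 1.39-fold up for Maoa and 1.42-fold down for Maob.

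At ZT12 against ZT6, both Maoa probe sets were higher on all 3 ZT12 arrays than on any ZT6 array. The differences were 0.31 ± 0.17 (interval -0.08 to 0.69, limma adjusted p = 0.723) with D00688_s_at and 0.22 ± 0.17 (limma adjusted p = 0.83) with S45812_s_at. Such an order, all 3 above all 3, held for 10.3% of all tested probe sets, and 0.286% passed the test. Maob differed by -0.02 ± 0.20 there (limma adjusted p = 0.995). In CT12 against CT6, 0.0381% passed, which are 2 probe sets, against 1306 without CT12 array 3. Maoa differed there by 0.09 ± 0.17 and -0.04 ± 0.17, with overlapping groups, and Maob by -0.38 ± 0.20 (interval -0.82 to 0.05, limma adjusted p = 0.208), or -0.45 without that array (limma adjusted p = 0.133). With the lens level as a covariate the Maob difference was -0.17 (limma adjusted p = 0.761). Lens markers had a median difference of 2.64 log2 units between CT12 and CT6. The difference of the hour effect, CT minus ZT, was -0.22 ± 0.25 and -0.26 ± 0.24 for the Maoa probe sets and -0.36 ± 0.28 for Maob (limma adjusted p = 0.616, 0.543 and 0.481), and 0.0191% passed.

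The regimes were compared at each hour. Maob averaged 8.97 ± 0.21 at CT12 and 9.50 ± 0.16 at ZT12 (SD, n = 3 each), and every CT12 array lay below every ZT12 array, as for 16.1% of all tested probe sets. The difference was -0.53 ± 0.20 (interval -0.96 to -0.10), with an unadjusted p of 0.0209 and an adjusted p of 0.151 (limma), in a comparison where 0.61% of probe sets passed. That share rests on single arrays: the 32 probe sets became 1072 without CT12 array 3, and 0 without ZT12 array 2 or without ZT12 array 3. The Maob difference was -0.60 without CT12 array 3 (limma adjusted p = 0.0696) and -0.59 without CT12 array 1 (limma adjusted p = 0.185). With the lens level as a covariate it was -0.40 (limma adjusted p = 0.348), and lens markers had a mean log2 level of 16.94, 16.67 and 15.14 at CT12 and of 15.78, 13.97 and 14.06 at ZT12. Maoa differed by -0.11 ± 0.17 and 0.01 ± 0.17 in this comparison, with overlapping groups.

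At CT6 against ZT6, Maob differed by -0.17 ± 0.20, and Maoa by 0.11 ± 0.17 with D00688_s_at and 0.28 ± 0.17 with S45812_s_at, all with an adjusted p of 1.00 by limma. The S45812_s_at values were higher on all 3 CT6 arrays than on any ZT6 array, as for 7.95% of probe sets. The percentage of probe sets that passed here was 0, as it was for CT against ZT over both hours. At an unadjusted p under 0.05 these comparisons had 266 and 621 probe sets. Over both hours Maob was at 9.17 ± 0.29 under CT and 9.51 ± 0.21 under ZT (SD, n = 6 each), a difference of -0.35 ± 0.14 (interval -0.65 to -0.04, unadjusted p = 0.0288, limma adjusted p = 0.367). With the lens level as a covariate this Maob difference was -0.28 (limma adjusted p = 0.593). Maoa differed by -0.00 ± 0.12 and 0.15 ± 0.12 between the regimes.

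**Figure D4:**
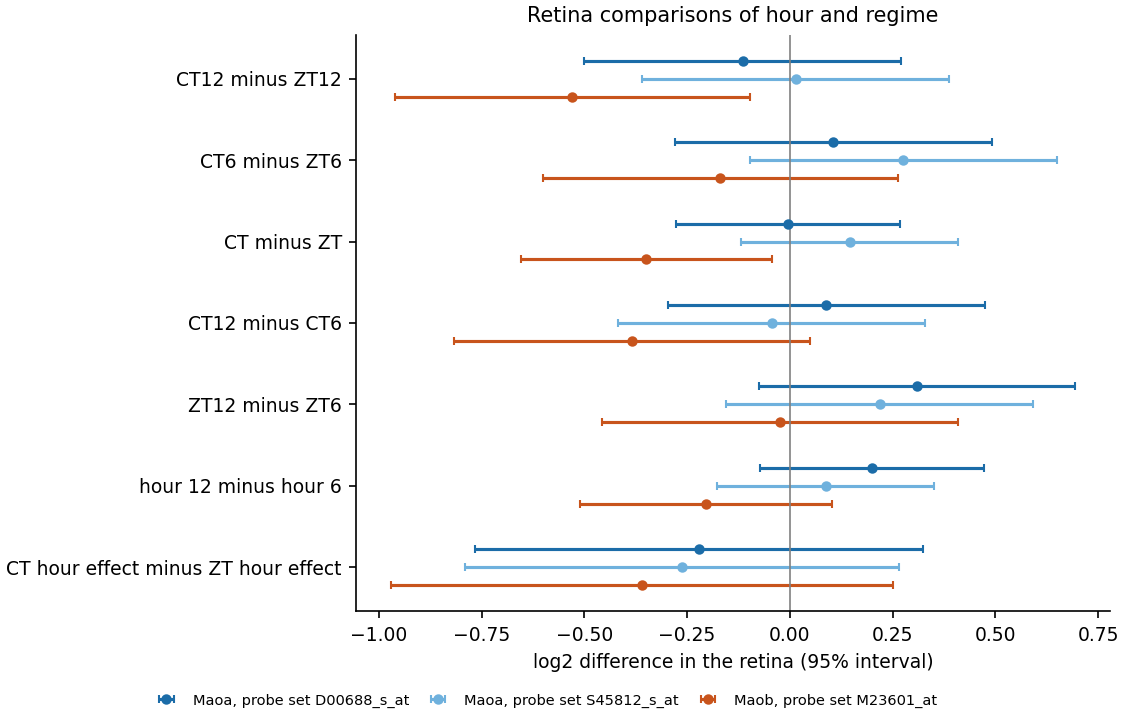
Log2 difference in the retina with its 95% interval, for 7 comparisons and 3 probe sets. The Maob interval excludes 0 for CT12 minus ZT12 (-0.96 to -0.10) and CT minus ZT (-0.65 to -0.04), and no probe set passed the threshold after adjustment over all probe sets.

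Ordered by mean log2 level in the retina, Maob ran CT12 (8.97), CT6 (9.36), ZT12 (9.50) and ZT6 (9.53), and Maoa (D00688_s_at) ran ZT6 (11.62), CT6 (11.73), CT12 (11.82) and ZT12 (11.93). With S45812_s_at the order of Maoa was ZT6 (11.45), ZT12 (11.67), CT12 (11.68) and CT6 (11.73). None of the neighbours compared directly passed the test, and CT6 and ZT12, neighbours in the Maob order, were not compared. The balance of Maoa over Maob differed by 0.40 log2 units between hour 12 and hour 6 (exact two-sided permutation test, p = 0.0671 over 924 arrangements). Leaving out retina CT6 array 1 gave 0.55 (exact permutation p = 0.00433). Leaving out any other single retina array gave an exact permutation p between 0.0606 and 0.13. The mean of all probe sets of each gene gave 0.35 (exact permutation p = 0.108).

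In the pineal gland single arrays were compared without a test, on the values as deposited. Maob was 1.28-fold higher at ZT12 than at ZT6 and 1.24-fold higher at CT12 than at CT6, or 0.35 and 0.31 log2 units. Maoa differed by 0.36 and -0.15 with D00688_s_at and by -0.05 and -0.23 with S45812_s_at in the same comparisons. After quantile normalization of the 4 pineal arrays these were 0.43 and -0.08 with D00688_s_at, 0.03 and -0.16 with S45812_s_at, whose first value changes sign, and 0.33 and 0.29 for Maob. As deposited, none reached 1 log2 unit in both regimes, which 2.56% of probe sets did. For CT against ZT, Maob differed by -0.12 at hour 12 and -0.09 at hour 6. Maoa differed by -0.13 and 0.37 with D00688_s_at in the same order, and by -0.26 and -0.08 with S45812_s_at. On the normalized scale of all 16 arrays, the hour effect on Maob was 0.33 in the pineal gland and -0.20 in the retina, a difference of 0.53 ± 0.28 that did not pass (limma adjusted p = 0.545), where 0.629% of probe sets passed. The CT effect differed between the tissues by 0.25 ± 0.28 for Maob (limma adjusted p = 0.922), where 0.21% passed. For Maoa the hour effect differed by -0.05 ± 0.27 with D00688_s_at and -0.15 ± 0.25 with S45812_s_at. Its CT effect differed by 0.14 ± 0.27 and -0.27 ± 0.25 in the same order, and none of these passed. These tests of tissue with hour and regime were chosen after seeing the data.

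Of the gene lists, Cpt1a and Egr1 were the only tested genes to pass in any retina comparison. Cpt1a, the carnitine acyltransferase of the outer mitochondrial membrane, was lower by 1.37 ± 0.17 log2 units at CT12 than at CT6, by 1.03 at CT12 than at ZT12, and by 1.06 at hour 12 than at hour 6. Egr1 was higher by 5.68 ± 0.69 at ZT12 than at ZT6 and by 3.82 at hour 12 than at hour 6. No tested gene of monoamine breakdown, synthesis or transport passed there. With arrays numbered 3 left out, 0 probe sets passed at ZT12 against ZT6 and at hour 12 against hour 6. In that setting 0 were lower at CT12 against CT6 or at CT12 against ZT12, so every Cpt1a and Egr1 call was lost. With the lens level as a covariate, 0 passed at CT12 against CT6 and at hour 12 against hour 6.

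Across the 12 retina arrays, the genes whose level ran most like Maoa (D00688_s_at) by Pearson r were Marcks (0.82), Ddah1 (0.78), Nab1 (0.76), Qdpr (0.76) and Hsp90ab1 (0.76). Without CT12 array 1 these were 0.78, 0.84, 0.75, 0.71 and 0.74. The second Maoa probe set had r = 0.46 over 12 arrays and 0.30 over 11, and Maob had -0.17 and -0.07. For Maob the most alike were Hsd17b7 (0.88), Gfm1 (0.88), Slc25a23 (0.85), Zranb2 (0.84) and Tango2 (0.84), with 0.89, 0.87, 0.84, 0.83 and 0.85 over 11 arrays. These are the highest of 4385 values each, over arrays that share their groups and their normalization, and medians over all were -0.06 for Maoa and 0.10 for Maob.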

How the data were processed

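Total RNA of rat retina and pineal gland was hybridised to 16 single-colour Affymetrix arrays, and the deposited series table gives 1 linear intensity per probe set and array. The authors' deposited intensity values carry no detection calls, and how the authors summarized, background-corrected and scaled them was not given in the sources used here. Probe set names came from the platform annotation in GEO, and no symbol changed when it was updated through its Entrez identifier. Each fit used intensities quantile normalized over its own arrays, with 16 added before the log2 step. A filter at the 40th percentile of the mean level kept 5244 of 8740 probe sets. Tests were moderated two-sided ones from limma 3.58.1 (R 4.3.3, tables prepared in Python 3.11.15), with Benjamini-Hochberg adjustment over the 5244 and a threshold of 0.05. The retina fit held 4 groups, with 8 residual degrees of freedom. The tissue fit held tissue and condition, with 11. The code was tested on simulated data. A gene with several probe sets was represented by the brightest one. Every Maoa and Maob probe set was named, and likeness was read as Pearson r over the 12 retina arrays, with the 5 highest genes named. The members and gene lists were chosen with earlier results of these data known. The title numbers were checked as possible pairs: deviations from the group means correlated by 0.00 to 0.41 for number 1, by -0.41 to 0.11 for number 2 and by -0.14 to 0.36 for number 3, so the numbers were not treated as pairing the arrays. Promoter sequences are from RefSeq, build GRCr8. Precision is limited by how many arrays there are.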

Additional observations from a re-analysis of the deposited data

How the results depend on the processing

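The tissue differences kept their direction and passed the threshold under all 26 alternatives (offset, normalization, filter, prior, array weights, no condition term, arrays numbered 3 left out, each array left out), with ranges of -1.27 to -0.76 for Maoa with D00688_s_at, -1.53 to -1.02 with S45812_s_at and 4.35 to 5.14 for Maob. In the retina, Maoa passed under none of the alternatives. Maob passed only under array weights, with CT12 against CT6 at -0.67 (limma adjusted p = 0.00168), CT12 against ZT12 at -0.76 (0.000477), hour 12 against hour 6 at -0.33 (0.0357), CT against ZT at -0.42 (0.0175) and the difference of the hour effect at -0.69 (0.031). The estimation of those weights stopped before it converged, and CT12 array 2 received 48.4 and CT12 array 1 0.0439, where the other 10 retina arrays had 0.233 to 1.70. Over the alternatives other than array weights, the lowest adjusted p of Maob at CT12 against ZT12 was 0.0696, without CT12 array 3. Retina differences that had not passed changed sign in 28 cases, and 1 untested pineal difference changed sign with quantile normalization. Counts of probe sets past the threshold ranged from 0 to 279 for ZT12 against ZT6 (15 as reported), 0 to 2524 for CT12 against CT6 (2), 0 to 3 for CT6 against ZT6 (0), 0 to 2568 for CT12 against ZT12 (32), 0 to 1432 for hour 12 against hour 6 (11), 0 to 1031 for CT against ZT (0), 1 to 1370 for the difference of the hour effect (1) and 2765 to 5338 for pineal against retina (3977), with the highest retina counts under array weights. Leaving out single arrays gave 1 to 79 for ZT12 against ZT6 (highest without CT12 array 1), 0 to 1306 for CT12 against CT6, 0 to 1072 for CT12 against ZT12, 3 to 178 for hour 12 against hour 6 and 1 to 63 for the difference of the hour effect (these 4 highest without CT12 array 3), and 0 to 3 for CT6 against ZT6 and for CT against ZT. In the tissue comparison the count was lowest with the 60th percentile filter and highest with no filter, where more probe sets are tested.

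In a fit with title numbers as a replicate block, Maob at CT12 against ZT12 stayed at -0.53 (limma adjusted p = 0.158). Permuting the balance of hour 12 against hour 6 within numbers gave an exact permutation p of 0.0741. The block changed no call of Maoa or Maob. Over the array, counts past the threshold became 11 for ZT12 against ZT6, 3 for CT12 against CT6 and 8 for CT12 against ZT12. Only 5 of 12 arrays correlated best with an array of their own number. The balance between hours ranged from 0.32 to 0.55 when each array was left out. The 60th percentile filter removed Maob in the retina, so it gave no value there. The block was not possible between tissues, since pineal arrays carry no number. The cause of the array weight results was not tested. No detection calls limit what the low retina signal of Maob can show.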
